A study of Mus musculus with 12 samples.

Results

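The 28 genes studied here act in the entry into meiosis and in meiotic recombination. Of them, 15 carried N6-methyladenosine (m6A) peaks in every list from mouse spermatogonial stem cells (SSCs) and in none from iNSCs. The iNSCs are neural stem cell-like cells made from SSCs. Of all protein-coding genes, 6.79% had this pattern, and of those with a peak in any list 11.3% did. The 28 genes were a list of names chosen with earlier results of these data known. All of them were matched to spans of the RefSeq GRCm38.p6 table, which holds 21900 protein-coding genes, 27 by symbol and Meiosin by its synonym Bhmg1. A gene was counted in a list when at least 1 peak of that list fell in its span. The lists came from antibody pull-down of m6A in fragmented poly(A) RNA, with 3 SSC and 3 iNSC immunoprecipitation (IP) libraries. SSCs, testis germ cells that renew themselves, grew over STO feeder cells that no longer divide, in serum-containing medium with LIF, EGF, GDNF and 10 ng/mL basic FGF. For iNSCs, SSCs freed of feeders by differential plating were put on laminin, given 1 µM retinoic acid for 24 h and then a neural medium with 10 µM SB431542, which blocks TGF-β receptor kinases, and 20 ng/mL basic FGF. The labels name neither a mouse strain nor an age, nor the days spent in the neural medium, and they do not state separate cultures, so the spread between the libraries may be technical.

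Meiosis begins when retinoic acid and the STRA8 and MEIOSIN proteins switch on a meiotic gene programme in spermatogonia. Programmed DNA breaks are then made by SPO11 and its partners at sites chosen by PRDM9. The breaks are repaired on the homologous chromosome by DMC1 and BRCA2, and some of them become crossovers. m6A is a methyl mark on mRNA that proteins of the YTH family read, among them YTHDC2, the partner of MEIOC at meiotic entry. Without the input libraries, not analysed here, absence of methylation and absence of the transcript cannot be told apart where a gene had no peak. In these bulk libraries fewer cells with a transcript and less transcript per cell cannot be told apart either.

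RefSeq promoter windows, 250 bases before and 50 after a transcription start, were found for 22 of the 28 genes. Of these, 5 had an SSC peak over transcribed bases of the window on the strand of the gene. The share of all genes with such a peak was not computed. In SSC lists a mean of 8.51% of member peaks and 9.42% of all peaks in genes lay in the first 500 bases of the span. No iNSC peak lay over the transcribed bases of these windows, but iNSC lists held only 7 to 8 member peaks each, in Brca2, Prdm9 and Mlh3. The start sequences of the 5 genes are shown because theirs are the member peaks whose sequence RefSeq windows hold. Each line holds 250 bases before the start and the first 30 transcribed bases on GRCm38.p6, with capitals for transcribed bases inside a peak.
Meiosin (chr7:19118315-19118594, minus strand): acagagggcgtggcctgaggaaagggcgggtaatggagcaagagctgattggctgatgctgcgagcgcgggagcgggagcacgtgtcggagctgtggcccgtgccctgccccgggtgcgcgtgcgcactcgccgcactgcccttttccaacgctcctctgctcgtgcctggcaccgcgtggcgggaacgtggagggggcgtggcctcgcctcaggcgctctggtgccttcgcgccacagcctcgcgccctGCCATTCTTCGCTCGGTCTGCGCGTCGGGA
Meioc (chr11:102665335-102665614, plus strand): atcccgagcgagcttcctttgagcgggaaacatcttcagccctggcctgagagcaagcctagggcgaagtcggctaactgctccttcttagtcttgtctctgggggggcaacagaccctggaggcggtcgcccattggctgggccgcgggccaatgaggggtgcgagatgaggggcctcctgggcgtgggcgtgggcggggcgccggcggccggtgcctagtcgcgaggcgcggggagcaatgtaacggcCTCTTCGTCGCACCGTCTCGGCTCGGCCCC
Hormad1 (chr3:95559427-95559706, plus strand): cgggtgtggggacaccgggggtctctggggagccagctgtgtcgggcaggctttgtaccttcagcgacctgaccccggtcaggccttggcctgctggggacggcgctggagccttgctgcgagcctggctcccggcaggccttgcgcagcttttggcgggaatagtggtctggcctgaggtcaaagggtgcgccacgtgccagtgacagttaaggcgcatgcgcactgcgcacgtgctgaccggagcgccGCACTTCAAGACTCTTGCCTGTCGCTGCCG
Hsf2bp (chr17:32034479-32034758, minus strand): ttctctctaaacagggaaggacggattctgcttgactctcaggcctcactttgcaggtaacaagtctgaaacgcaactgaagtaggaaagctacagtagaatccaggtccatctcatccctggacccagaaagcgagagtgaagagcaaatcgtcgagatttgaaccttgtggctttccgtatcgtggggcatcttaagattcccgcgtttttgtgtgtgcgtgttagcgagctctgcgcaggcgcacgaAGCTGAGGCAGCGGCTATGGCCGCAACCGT
Trip13 (chr13:73937738-73938017, minus strand): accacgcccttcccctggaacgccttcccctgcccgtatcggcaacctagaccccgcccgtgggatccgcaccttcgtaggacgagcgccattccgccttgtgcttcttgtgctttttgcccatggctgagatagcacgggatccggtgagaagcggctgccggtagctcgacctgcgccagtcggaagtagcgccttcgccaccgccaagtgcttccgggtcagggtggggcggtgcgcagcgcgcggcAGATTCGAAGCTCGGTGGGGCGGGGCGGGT
The Meiosin peak at its start (percentiles 67.1 and 82.2 in SSC 2 and SSC 3) ran from 19118178 to 19118368 on chromosome 7. A percentile gives the rank of a peak's score in its own list, where 100 is the best and tied scores all take the highest rank of the tie. The Hsf2bp peak (67.9 in SSC 1 and 73.6 in SSC 3) ended at the start itself. The Meioc peak (20.3 in SSC 2 and 25.7 in SSC 3) began at the start. The Hormad1 peak was in SSC 1 alone (8.35). The Trip13 peak was in SSC 3 alone, at a percentile of 95.4.

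Without a window, Terb2 had an SSC 3 peak that began at the first base of its span (122186272 on chromosome 2), and a Tex11 peak of SSC 2 overlapped the start of its span. Motifs were searched in the whole windows of 300 bases. The motif TTCCCGC, bound by E2F factors, was in a window of 9 of the 22 genes on either strand, against 6.84% of 17492 protein-coding genes with a window. The 9 genes were Brca2, Hormad1, Hsf2bp, Meioc, Meiosin, Msh5, Prdm9, Rnf212 and Spata22. The motif CNCCTCAG, recognised by STRA8 and MEIOSIN, was in windows of 5 of 22 genes (Hfm1, Hormad2, Meiosin, Msh5 and Prdm9), against 9.86% of all genes. The E-box CACGTG, bound by MAX and MGA, was in windows of 4 of 22 (Brdt, Hormad1, Meiosin and Rnf212), against 8.91%. In Prdm9 the matches of the first pair of motifs shared a base. The Meiosin window held all 3 motifs, while the Trip13 window held none. These are matches of letters in DNA and were not set against the m6A peaks by a test. The TTCCCGC matches outside the start sequences above are shown in capitals, GCGGGAA on the other strand.
Rnf212 (chr5:108775082-108775140, minus strand): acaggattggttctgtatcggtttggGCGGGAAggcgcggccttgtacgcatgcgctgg
Brca2 (chr5:150522427-150522485, plus strand): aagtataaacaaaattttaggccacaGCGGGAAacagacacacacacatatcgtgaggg
Spata22 (chr11:73329711-73329769, plus strand): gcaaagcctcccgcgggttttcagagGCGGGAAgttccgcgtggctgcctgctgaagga
Prdm9 (chr17:15564369-15564427, minus strand): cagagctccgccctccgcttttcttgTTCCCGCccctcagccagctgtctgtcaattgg
Msh5 (chr17:35046655-35046713, minus strand): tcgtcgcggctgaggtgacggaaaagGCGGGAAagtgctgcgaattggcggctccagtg

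The lists held no read counts, so depth is unknown, and whether the number of list entries follows it was not tested. SSC lists had 19728 to 27597 entries and iNSC lists 13913 to 16060. SSC entries were narrower (median width 200.0 ± 6.24 bases, SD, n = 3) than iNSC entries (399 ± 32.6). Of 10 germ cell markers, 9, 7 and 8 had peaks in SSC 1 to SSC 3, against 1, 1 and 2 in iNSC 1 to iNSC 3. Ddx4, Zbtb16, Id4, Lhx1, Sall4, Tex14 and Kit were in every SSC list and no iNSC list, Dazl was in SSC 1 alone, Etv5 in 2 SSC and 3 iNSC lists, and Gfra1, the GDNF receptor of these stem cells, in iNSC 3 alone. Of 12 markers of spermatocytes and spermatids, cells in or after meiosis, 2, 5 and 2 had one in SSC libraries, against 2 in each iNSC library. Adam3, Ldhc, Tnp2, Prm1, Prm2 and Spag6 had none in any list. Tnp1 and Acrv1 were in SSC 2 alone, Piwil1 in SSC 1 and SSC 2, Ybx2 in SSC 2 and SSC 3, Tbpl1 in the iNSC lists alone and Hspa2 in all 6 lists. Of 10 fibroblast feeder markers, SSC libraries held 6, 4 and 8 and iNSC libraries 5, 4 and 5. Of 10 neural markers, 5 had a peak in each SSC list and 2 in each iNSC list, and Sox1, Fabp7, Hes5 and Olig2 had none. The neural factor Pax6 was the neural marker found in every iNSC list and in no SSC list, while Sox2, Msi1, Cdh2 and Tubb3 were found in every SSC list and no iNSC list, and Nes in all 6. The part of any of these cell types in the values of the meiotic genes was not tested.

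Among the meiotic genes, 22, 19 and 25 of 28 had a peak in SSC 1, SSC 2 and SSC 3, or 78.6% ± 10.7 (SD, n = 3). In each iNSC list 3 of 28 had a peak (10.7%), and they were Brca2, Prdm9 and Mlh3 each time. All 3 SSC lists lay above all 3 iNSC lists. The same held over all protein-coding genes, at 37.3% to 45.4% in SSC lists and 29.6% to 32.0% in iNSC lists. Of all protein-coding genes, 42.6% ± 4.64 had a peak in SSC lists and 31.1% ± 1.31 in iNSC lists. The median member had a peak in 3 SSC lists and 0 iNSC lists, and the median protein-coding gene in 1 and 0. SSC-only genes, with a peak in 3 SSC lists and 0 iNSC lists, made up 15 of 28 members, 6.79% of all protein-coding genes and 11.3% of the 13197 genes with a peak in any list. No member was iNSC-only, against 1.31% of all protein-coding genes and 2.17% of those with a peak. Peaks in all 6 lists were held by 2 members (Prdm9 and Brca2), against 18.1% and 30.1%. Of the others, 6 genes had peaks in 2 SSC lists alone (Meiosin, Trip13, Syce3, Spata22, Rnf212, Hfm1), 2 in 1 SSC list alone (Spo11, Meiob), Mlh3 in 1 SSC and 3 iNSC lists, and Hormad2 and Mcmdc2 in none. In the better-scoring 50% of each list 6 members were SSC-only (4.40% of all protein-coding genes), and with every list reduced to its 13913 best-scoring peaks 9 were (3.42%).

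**Figure D1:**
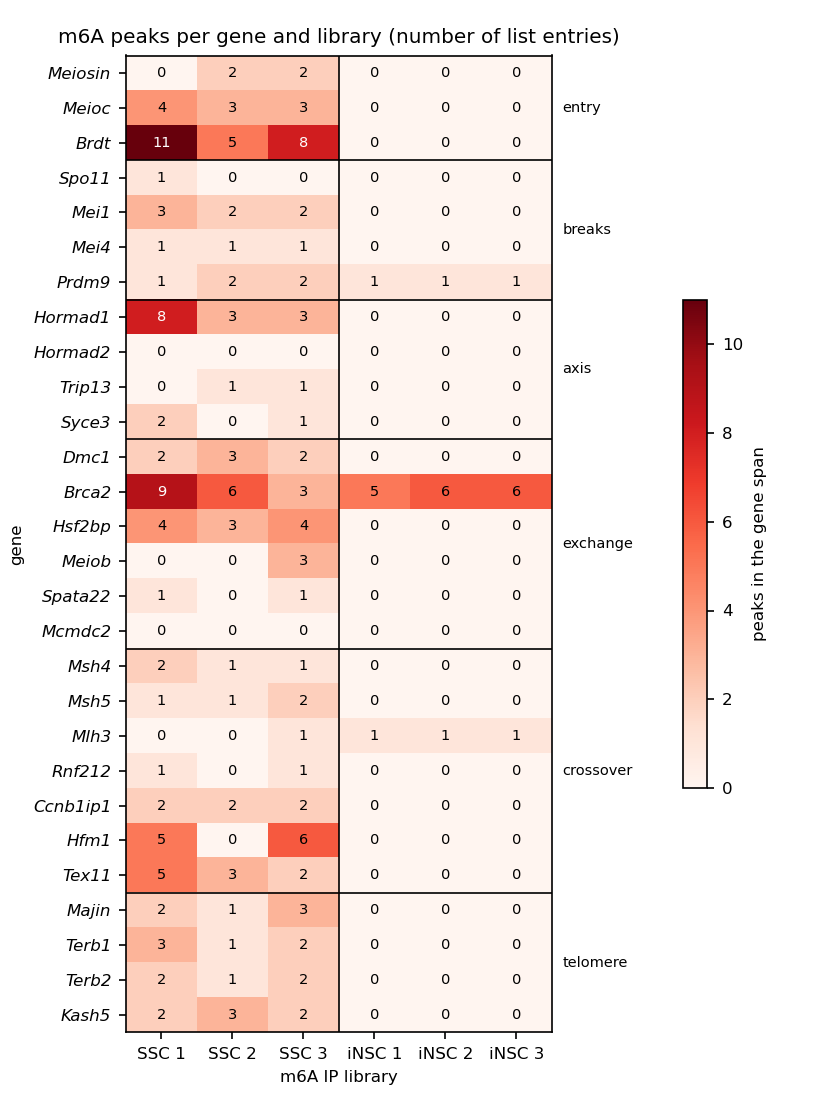
Number of m6A peaks (list entries, printed in each cell and shown by colour from 0 to 11) in each of the 28 genes (rows, in blocks by role) and each IP library (columns). In the iNSC columns only Prdm9, Brca2 and Mlh3 have entries, and Brdt has the highest count, 11 in SSC 1.

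Other genes of the same processes are set beside the members. Their lists were also chosen with earlier results of these data known, and were not trimmed by their values. The counts below stand against all protein-coding genes, of which 6.79% were SSC-only, 1.31% iNSC-only and 18.1% in all 6 lists. Of 11 meiotic cohesin and synaptonemal complex genes, 9 were SSC-only, with Smc1b (13, 11 and 11 peaks) and Sycp2 (14, 6 and 6) among them. Sycp1, which joins homologues in the complex, had 24, 22 and 19 peaks in SSC lists and 5, 2 and 1 in iNSC lists. Of 23 other genes of meiotic break formation and strand exchange, 6 were SSC-only and 0 iNSC-only. Among these, Tex15 had 5, 2 and 1 peaks in SSC lists and 0 in iNSC lists, while Fignl1 had 1 in every list. Iho1, a partner of MEI4 in break formation, had 1, 1 and 2 peaks in SSC lists and 1, 1 and 0 in iNSC lists. Of 10 partners in meiotic entry, 3 were SSC-only (Stra8, Rbm46 and Pcgf6). Rbm46, an RNA-binding partner of MEIOC and YTHDC2, had 6, 3 and 3 peaks in SSC lists. Mga and Max, which hold meiotic genes silent in dividing cells, had peaks in all 6 lists. Of 33 recombination genes that mitotic cells also use, 2 were SSC-only, 2 iNSC-only, and 15 were found in all 6 lists. Their share with a peak was 74.7% ± 4.63 in SSC lists and 67.7% ± 4.63 in iNSC lists, and the groups overlapped. Rad50, of the complex that trims broken ends, had 13, 12 and 11 peaks in SSC lists and 12, 12 and 13 in iNSC lists. Fancm and Brca1 also had peaks in all 6 lists.

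**Figure D2:**
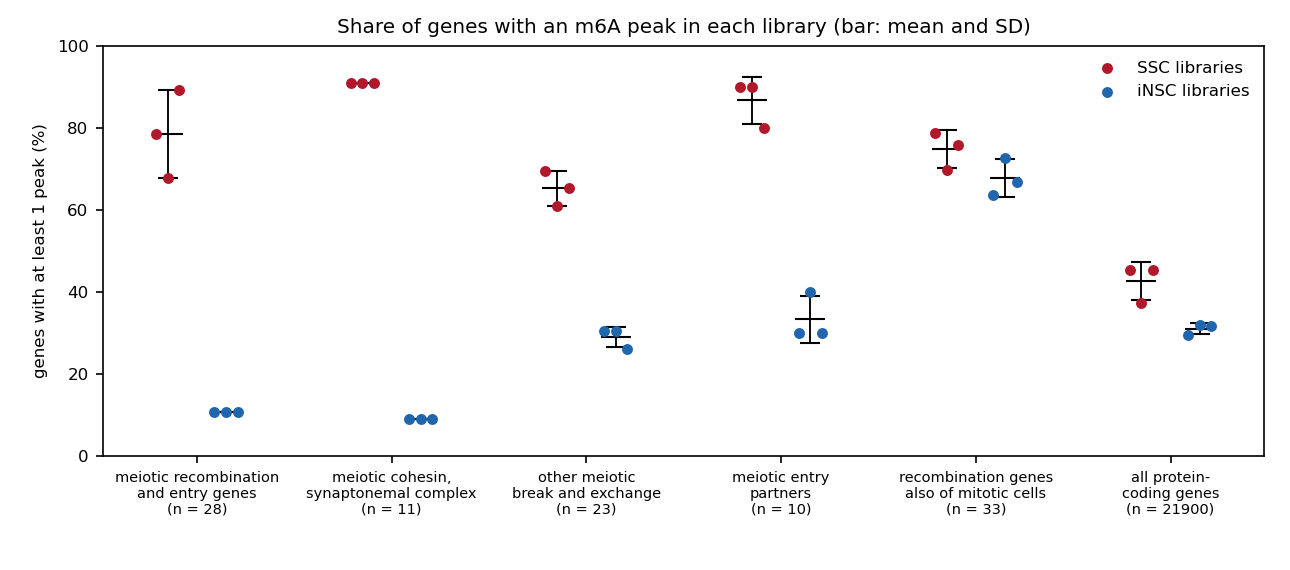
Percent of the genes of each list with at least 1 peak (y axis) for 6 sets of genes (x axis, n is the number of genes). Points are libraries, and bars give the mean and SD of 3. The 28 meiotic recombination and entry genes lie at 67.9% to 89.3% in SSC libraries and at 10.7% in each iNSC library, whereas recombination genes of mitotic cells overlap between the groups.

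The 3 genes of meiotic entry and of the meiotic expression programme had no iNSC peak. Of all protein-coding genes, only 29.6% to 32.0% had a peak in an iNSC list. Meioc, which encodes the partner of YTHDC2 that lets spermatogonia leave mitosis, lies on chromosome 11 from 102665351 to 102682240. Its peaks covered 3366, 2942 and 3072 bases in the SSC lists and 0 in the iNSC lists. Most of that length lay in 2 sites called in all 3 SSC lists, from 102674039 to 102675911 and from 102680510 to 102681694. The percentiles of the former were 94.6, 4.27 and 28.2, so that its rank differed widely between lists while both of its edges were the same in all 3. Brdt, a testis bromodomain protein of spermatocytes and spermatids, had 11, 5 and 8 peaks in SSC lists over 2019, 1346 and 1217 bases. The peaks fell into 14 sites, of which 2 were in all 3 SSC lists. The Brdt site from 107359193 to 107359473 on chromosome 5 had percentiles of 87.3, 86.1 and 93.6. Meiosin, the partner of STRA8, had 0, 2 and 2 peaks in the SSC lists. In iNSC 1 and iNSC 3 a plus-strand peak reached into the last 279 bases of the Meiosin span, where the gene Six5 overlaps it on that strand. Those peaks were given to Six5, and Meiosin lies on the minus strand. Meiosin was the only member with an iNSC peak over its span that was placed elsewhere.

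Genes of break formation differed in how firmly peaks were called. Prdm9, the histone methyltransferase that marks break sites, had its main peak at the end of the gene. Merged over the lists, this peak ran from 15543079 to 15545360 on chromosome 17. Scores of about 3100 or more are the ceiling of these lists, and 3.73%, 7.56% and 4.50% of entries in SSC 1 to SSC 3 were there. This peak was at the ceiling of SSC 1, SSC 2 and SSC 3. Its percentiles of 99.8, 99.7 and 99.8 in them are the highest rank of the tied scores. In iNSC 1, iNSC 2 and iNSC 3 its percentiles were 35.9, 26.9 and 9.68. All 6 lists shared the edge at 15545360. Peaks of Prdm9 covered 2282, 2122 and 1848 bases in SSC 1 to SSC 3, against 1473, 1541 and 1453 in iNSC 1 to iNSC 3 (2084 ± 219 and 1489 ± 46.1, SD, n = 3 each). The groups did not overlap (exact two-sided permutation p = 0.1, which is the lowest value for 3 libraries against 3). A further Prdm9 site from 15553224 to 15553545 was in SSC 2 and SSC 3 alone. The zinc fingers of PRDM9 are repeats, and whether reads of that part are shared with other zinc finger genes was not tested. Mei1 had 3, 2 and 2 peaks in SSC lists and Mei4, a partner of SPO11, had 1 in each. No site of Mei1 or Mei4 was in all 3 SSC lists. Spo11, which cuts the DNA, had a single peak in SSC 1 at a percentile of 8.91.

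Genes of the chromosome axis and synapsis were uneven. Hormad1, which loads on unsynapsed axes and promotes breaks, had 8, 3 and 3 peaks in SSC lists and 0 in iNSC lists. Its site from 95578053 to 95578300 on chromosome 3 was in all 3 SSC lists, at percentiles of 64.4, 52.1 and 52.0. Hormad2, its paralogue, had no peak in any list over a span of 95398 bases. Trip13, the ATPase that removes HORMAD proteins from synapsed axes, had a peak in SSC 2 (percentile 25.3) and another in SSC 3 (95.4), at different places. Syce3, a central element protein of the synaptonemal complex, had 2, 0 and 1 peaks, with the site from 89390166 to 89390439 on chromosome 15 in SSC 1 and SSC 3.

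Among strand exchange genes, Dmc1, the meiotic recombinase, had 2, 3 and 2 peaks in SSC lists and 0 in iNSC lists. They were short, and covered 190, 273 and 162 bases. The site from 79588751 to 79588823 on chromosome 15 was in all 3 SSC lists at percentiles of 90.6, 87.5 and 51.7. Hsf2bp, which brings BRCA2 to meiotic breaks, had 4, 3 and 4 peaks. Its sites from 32022766 to 32022869 and from 32033261 to 32033411 on chromosome 17 were in all 3 SSC lists. Meiob and Spata22 encode a single-stranded DNA binding pair. Meiob had 3 peaks in SSC 3 alone, and a further peak there also touched the Hagh span on the same strand and was left out. Spata22 had 1 peak in SSC 1 and 1 in SSC 3, at percentiles of 7.68 and 7.0. Mcmdc2, a helicase-like protein of meiotic repair, had none.

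Brca2, which loads recombinases in mitotic and meiotic cells, was the member with the most covered bases in every list. It lies on chromosome 5 from 150522297 to 150570147. Its peaks covered 7286, 6983 and 5373 bases in SSC lists and 7279, 7466 and 7190 in iNSC lists, and the groups overlapped (6547 ± 1028 and 7312 ± 141, SD, n = 3 each; exact two-sided permutation p = 0.3). The longest site ran from 150538649 to 150543457, 4809 bases with the same edges in all 6 lists. Its percentiles were 99.8, 45.9 and 83.7 in SSC lists and 99.6, 99.5 and 99.6 in iNSC lists. It was at the score ceiling in SSC 1 and in each iNSC list, where equal scores share a percentile. Other sites of Brca2 differed by group. The sites from 150529470 to 150529840 and from 150560004 to 150560196 were in 3 SSC and 0 iNSC lists. The latter had percentiles of 80.4, 65.4 and 77.4. The site from 150568939 to 150569858, which ended 289 bases before the gene end, was in 3 iNSC and 0 SSC lists, at percentiles of 3.92, 22.7 and 37.0. The site from 150544895 to 150544990 was in 3 iNSC lists and SSC 1.

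**Figure D3:**
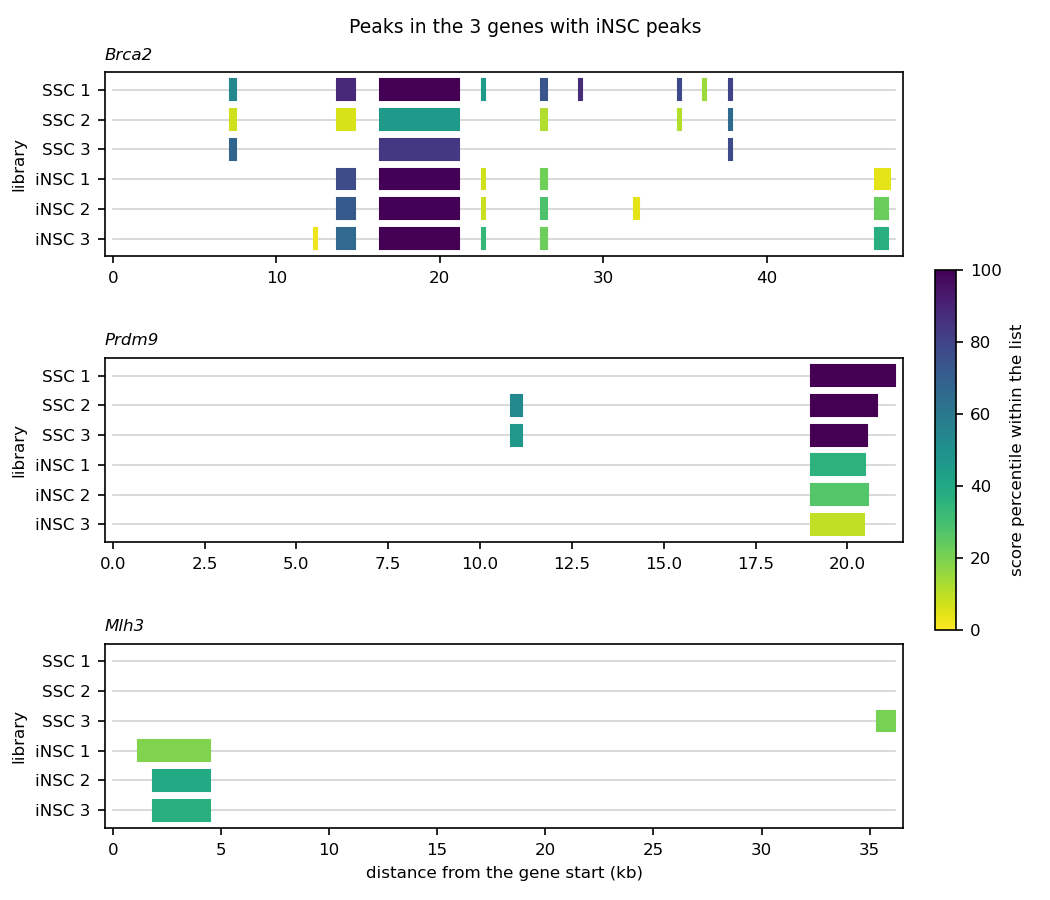
Peaks (boxes) in Brca2, Prdm9 and Mlh3 in each library (rows) by distance from the gene start in kb (x axis), coloured by the percentile of the score in its own list. Boxes are to scale, but none is drawn narrower than 0.4% of the span. The long Brca2 box and the last Prdm9 box are in all 6 rows, while Mlh3 has boxes near its start in iNSC rows and 1 at its end in SSC 3.

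Crossover genes were SSC-only in 4 of 7 cases, against 6.79% of all protein-coding genes. Msh4 and Msh5 encode the pair that stabilises crossover intermediates. They had 2, 1 and 1 and 1, 1 and 2 peaks in SSC lists. All 4 Msh4 sites were in a single list each. Ccnb1ip1, the ligase HEI10 that marks crossover sites, had 2 peaks in each SSC list, covering 622, 648 and 625 bases (632 ± 14.2, SD, n = 3). Both of its sites were in all 3 SSC lists. Percentiles were 72.9, 62.6 and 20.8 at the site from 50791973 to 50792306 on chromosome 14. At the site from 50793558 to 50793874 they were 2.94, 7.09 and 45.6, near the lowest score in SSC 1 and SSC 2. Tex11, an X-linked crossover factor, had 5, 3 and 2 peaks in SSC lists at 9 sites, none of them in all 3 lists, and the shortest entry was 6 bases long. Hfm1, a crossover helicase, had 5, 0 and 6 peaks, and 4 of its 7 sites were in both SSC 1 and SSC 3. Rnf212, a crossover ligase, had the same peak in SSC 1 and SSC 3, from 108750558 to 108750955 on chromosome 5. Mlh3, whose protein resolves crossovers and also serves in mismatch repair, was the exception to the direction of the list. Its peaks covered 3320, 2622 and 2631 bases in iNSC lists and 0, 0 and 849 in SSC lists (2858 ± 400 and 283 ± 490, SD, n = 3 each; p = 0.1, the smallest the exact two-sided permutation test allows). They lay at different places. The iNSC site ran from 85266152 to 85269474 on chromosome 12, near the start of this minus-strand gene, and the SSC 3 peak from 85234471 to 85235319, at its end.

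All 4 genes that tie telomeres to the nuclear envelope, from where chromosomes are moved to pair, were SSC-only, against 6.79% of all protein-coding genes. Majin had 2, 1 and 3 peaks in SSC lists, Terb1 3, 1 and 2, Terb2 2, 1 and 2, and Kash5, the link to the cytoskeleton, 2, 3 and 2. In SSC 2, the shortest SSC list, these genes had their fewest covered bases except for Kash5, with 22 bases for Majin, 155 for Terb1 and 82 for Terb2. The Terb1 site from 104482173 to 104482327 on chromosome 8 was in all 3 SSC lists. Majin, Terb2 and Kash5 had no such site.

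**Figure D4:**
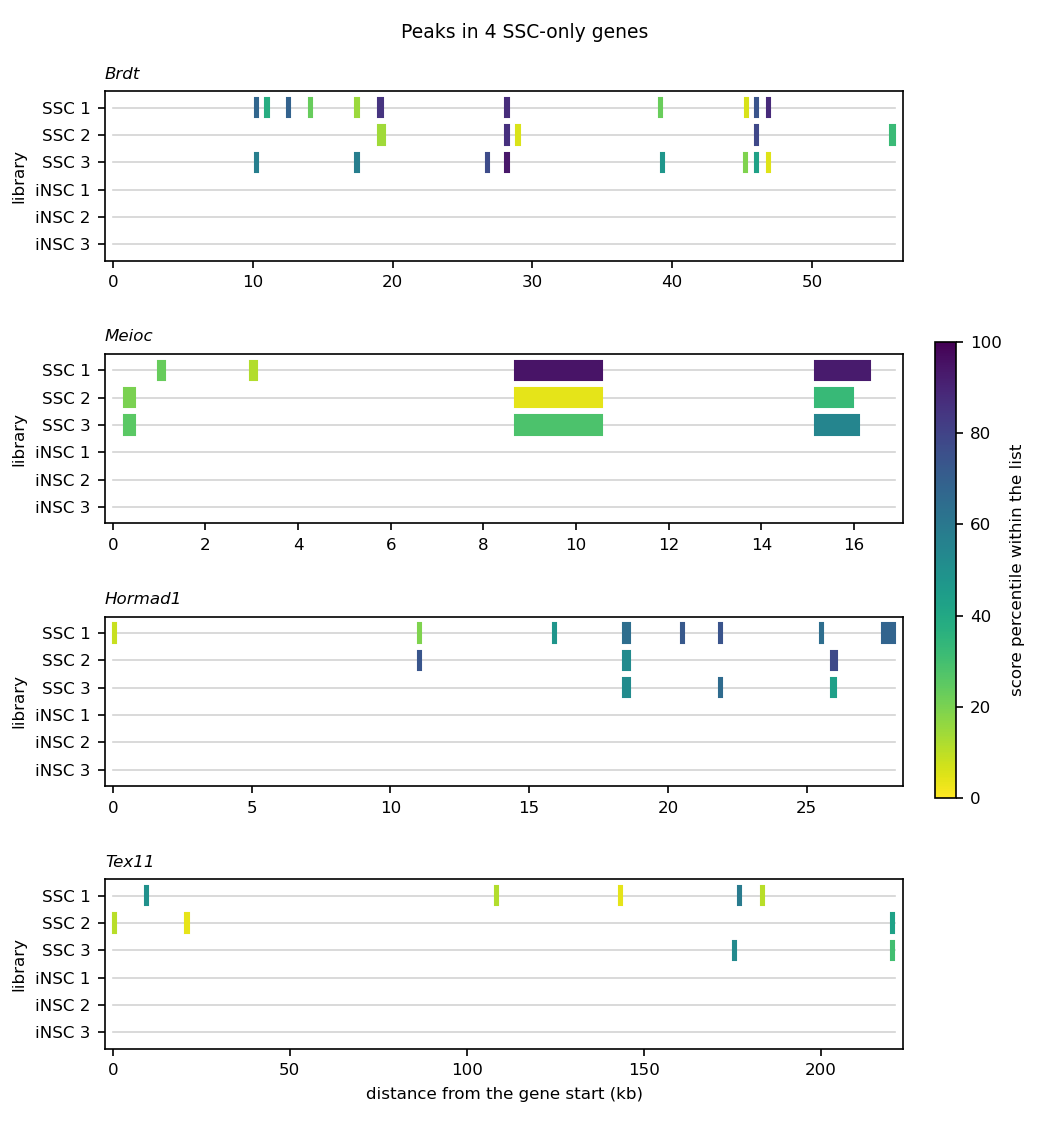
Peaks (boxes) in the SSC-only genes Brdt, Meioc, Hormad1 and Tex11 in each library (rows) by distance from the gene start in kb (x axis), coloured by the percentile of the score in its own list. No box is drawn narrower than 0.4% of the span. The long Meioc boxes recur in all 3 SSC rows, whereas the 9 sites of Tex11 are spread over its span and none recurs in all 3.

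Measured by covered bases, 16 of 28 members were higher in every SSC list than in any iNSC list, against 9.39% of all protein-coding genes and 15.6% of those with a peak in any list. They were the 15 SSC-only genes, which meet this call by definition, and Prdm9. The shares over all genes likewise include the 1488 SSC-only genes. Higher in every iNSC list was Mlh3 alone, against 10.6% and 17.5%. Member genes held 72, 44 and 60 peaks in SSC lists and 7, 8 and 8 in iNSC lists, which was 0.247% ± 0.0196 and 0.0510% ± 0.000263 (SD, n = 3) of the peaks placed in genes.

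The 199 member peaks merged into 115 sites, joined where peaks overlapped by at least 1 base on a strand. Of these, 106 were in SSC lists alone (92.2%, against 57.8% of 47318 sites in all protein-coding genes) and 4 in iNSC lists alone (3.48%, against 10.9%). A single list held 62 of them (53.9%, against 46.4%). Sites in 3 SSC and 0 iNSC lists numbered 13, or 11.3% of member sites, against 5.6% of all sites. Sites in 3 iNSC and 0 SSC lists numbered 2 (in Brca2 and Mlh3), against 3.38%, and sites in all 6 lists 2 (in Brca2 and Prdm9), against 10.1%. Of the 15 SSC-only members, 7 had a site shared by the 3 SSC lists (46.7%). Of all 1488 SSC-only genes, 951 had such a site (63.9%). Member sites in both remaining SSC lists and no iNSC list numbered 22 without SSC 1 (25.9%, against 11.3% of all sites), 32 without SSC 2 (31.4%, against 10.4%) and 18 without SSC 3 (18.4%, against 10.6%).

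**Figure D5:**
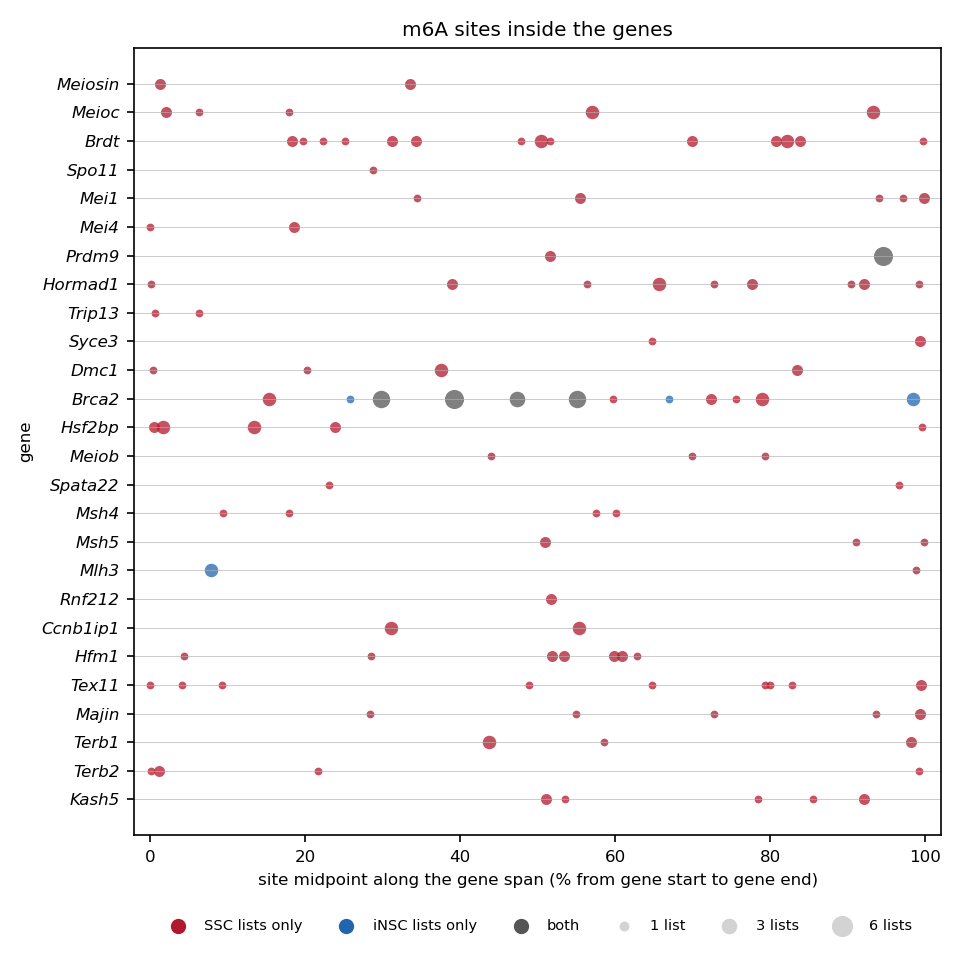
Midpoint of each merged site as percent of the gene span from start to end (x axis) in the 26 genes with a peak (rows). Colour tells whether SSC lists alone, iNSC lists alone or both held the site, and the area of a point gives the number of lists. Points for both groups are in Brca2 and Prdm9 only, and points of 3 SSC lists are in 8 genes beside Prdm9.

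Member peaks in SSC lists were short and of middling rank. Their median width was 146, 165.5 and 158 bases, below the list medians of 193, 205 and 202. Entries under 100 bases made up 31.8% ± 3.96 of member peaks and 19.7% ± 3.06 of all peaks in genes in the SSC lists (SD, n = 3). The median percentile of member peaks was 48.4, 33.7 and 44.0. Taking each gene's best peak, the median percentile over members was 64.1, 62.6 and 54.3, and over all genes with a peak 65.1, 59.8 and 62.4. In the last 2000 bases of the span lay 15.3% ± 2.64 of member peaks and 16.9% ± 1.45 of all peaks in genes. In the first 500 bases lay 8.51% ± 3.82 and 9.42% ± 2.17, and between them 76.2% ± 5.24 and 73.7% ± 1.82. These zones were set on gene spans that include introns, and exons were not used. In iNSC lists 2 member peaks per list were in the last 2000 bases and 0 in the first 500. Peaks with both edges equal to those of a peak in another SSC list made up 45.6% ± 4.94 of member peaks and 38.6% ± 7.83 of all peaks in genes.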

How the data were processed

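Fragmented poly(A) RNA was pulled down with an m6A antibody, per the labels' protocols, in 6 of 12 samples. The tools named in the submitters' processing notes are HISAT2 2.0.4 and cutadapt 1.9.3, with the build mm9, while the peak caller is not given in the sources used here. The authors deposited 1 peak list per IP library with a score per peak, of no stated unit and used to rank peaks within a list and to tell which were at its ceiling. Peak edges met GRCm38.p6 gene edges for 4.90% to 12.0% of peaks, against 0.00807% to 0.0187% after a shift of 10000 bases, so that build was used (1-based).

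Peaks were placed in protein-coding genes by an overlap of 1 base or more, and over several genes by strand (RefSeq promoters, or over 90% of a gene's peaks). Of 118075 peaks, 112965 touched 1 gene, strand placed 2859, 957 were ambiguous and left out, and 1294 touched none. Groups came from titles, since the cell type field names the opposite type in 12 of 12 samples. Presence calls carry no p, and the exact permutation test cannot go below 0.1. Members, lists and rules were chosen with earlier results of these data known. All 28 members are named, with the 3 genes of most covered bases from each process list. Stra8, Pcgf6 and the markers named were chosen after their values were seen. Names not matched were Spo16, Firrm and Speedya. Python 3.11.15, numpy 2.4.6 and pandas 2.3.3 were used, and the calls were tested on simulated peaks.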

Additional observations from a re-analysis of the deposited data

How the results depend on the processing

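The count of 15 SSC-only genes and that of 16 with more covered bases in every SSC list fell when lists were cut. In the better-scoring 50% of each list they were 6 and 6, with 1 gene in all 6 lists and 0 higher in iNSC. Over all 21900 protein-coding genes, 963 were then SSC-only and 432 iNSC-only. The share of members with a peak was 48.8% (SSC) and 3.57% (iNSC), with 25.3 and 2 peaks per library, 7 sites in 3 SSC and 0 iNSC lists, 0 in the reverse case, and 0% of iNSC member peaks in the last 2000 bases. Of the 6 SSC-only genes 5 were among the 15, and Prdm9 was the other. At equal list length the counts were 9 (all among the 15) and 10, with 1 iNSC-only gene, 1 in all 6 lists, shares of 58.3% and 9.52%, 30.7 and 6.33 peaks per library and 7 sites in 3 SSC lists alone. Among all 21900 protein-coding genes, 748 were SSC-only and 744 iNSC-only at equal length. For covered bases, genes in all 6 lists and sites, shares over all genes are not given under these cuts. Equal length cuts mainly SSC lists. With peaks of at least 100 bases there were 10 SSC-only genes (6.06% of all protein-coding genes), 39.7 and 6.33 peaks per library, and 18.8% and 31.7% of them in the last 2000 bases. Counting every overlap, an alternative added after the data were seen, gave iNSC values of 13.1%, 8.33 peaks and 31.9% in the last 2000 bases, through the Six5 peaks. With a peak in 2 of 3 libraries 21 genes were SSC-only, against 13.6% of all protein-coding genes. Requiring 50% of the peak in the span, the gene's strand, or a span extended by 1000 bases left the same 15 genes.

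Without each library in turn, SSC-only genes numbered 15 to 19 (17 without SSC 1, 19 without SSC 2 and 15 without SSC 3, against 8.31%, 10.5% and 8.34% of all protein-coding genes), iNSC-only genes 0 to 1 (Mlh3, without SSC 3), genes higher in iNSC 1 to 2 (the second without SSC 1), and sites in all remaining SSC lists alone 13 to 32. With the replicate number as a block, 16 genes were higher in SSC and 1 in iNSC in all 3 pairs, as without it. Same-numbered libraries did not deviate together across genes (r = 0.0107, -0.0181 and 0.0313), so the numbers were not taken as pairs. With an SSC library left out, the SSC-only call needs a peak in fewer lists, so the count of SSC-only genes cannot fall. Each cut of the lists leaves fewer peaks. The cause of the other shifts was not tested. Without read counts, peaks near the lowest score of 50 cannot be told from missed ones.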
